A study of Mus musculus with 18 samples.

Results

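Erg, Fli1, Ets1, Sox7, Sox18, Foxf2, Foxq1, Foxc1 and Tal1 are transcription factors that specify and maintain endothelial identity, and they were followed here in endothelial cells of the adult mouse brain after stroke. The 9 genes were taken by symbol from the 21638 genes of the deposited count table. All 9 passed the filter on low counts, which kept 17094 genes, and each had at least 680 counts in every library.

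ERG, FLI1 and ETS1 belong to the ETS family, whose members bind DNA at a GGAA core and occupy the regulatory regions of most endothelial genes. SOX7 and SOX18 are SoxF factors, known for their roles in arterial, venous and lymphatic specification, often alongside ETS factors. FOXF2, FOXQ1 and FOXC1 are forkhead factors; in the brain Foxf2 and Foxq1 are typical of the endothelium of the blood-brain barrier, and loss of Foxf2 or Foxc1 disturbs small cerebral vessels. TAL1 is a basic helix-loop-helix factor of blood and endothelial development that acts in complexes with E-proteins, LMO2, LDB1 and GATA factors. HDAC2 is a histone deacetylase, and EZH2 is the enzyme of Polycomb repressive complex 2 that methylates lysine 27 of histone H3; both are linked to gene repression.

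The study sorted CD31+, CD41-, CD45- cells from the cortex and made SMART-Seq v4 PLUS libraries from them, sequenced as paired ends. Stroke was modelled by occlusion of the middle cerebral artery (MCAO). The brains were taken on day 7. The sample records used here number this day and the days of tamoxifen, and hold no day for the occlusion. There were 6 groups of 3 libraries, 18 in all. Sham ipsilateral, Sham contralateral, MCAO ipsilateral and MCAO contralateral carried the genotype label WT. MCAO Hdac2 ECKO ipsilateral and MCAO Ezh2 ECKO ipsilateral came from mice with Hdac2lox/lox or Ezh2lox/lox alleles and Cdh5CreERT2, a tamoxifen-inducible Cre under the promoter of the endothelial gene Cdh5. All 6 groups are labelled as given tamoxifen at 75 mg/kg; the design text describes 5 doses from day 0 to day 4 for the deletions. The ECKO groups therefore differ from MCAO ipsilateral by the floxed alleles and, as far as the labels tell, by the Cre, and neither has a Sham or contralateral counterpart. The labels do not say whether the sides came from the same mice or whether mice were pooled, so the p-values measure only the spread between these libraries, which may be technical.

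Library totals ran from 25791401 to 57576255 counts. The sum of 10 brain endothelial markers lay between 20920 and 41698 CPM (counts scaled to library totals with edgeR's TMM factors) in all libraries, against at most 201 CPM for 10 mural markers, 93.6 CPM for 8 microglial markers and 25.4 CPM for 8 leukocyte markers. The mural marker Pdgfrb reached at most 4.48 CPM. Sums reached 276 CPM for 6 neuronal markers and 189 CPM for 6 oligodendrocyte lineage markers. For 6 astrocyte markers the highest sum was 91.2 CPM, for 7 megakaryocyte markers 82.9 CPM and for 6 fibroblast markers 17.2 CPM. Red cell markers differed widely: their sum was 71 to 671 CPM in MCAO Ezh2 ECKO, 38268 to 65450 CPM in MCAO ipsilateral and 49334 to 297898 CPM in MCAO Hdac2 ECKO. A pair of libraries stood apart by the summed level of 1466 olfactory and vomeronasal receptor genes, which endothelium is not known to use: MCAO contralateral replicate 1 had 1889 CPM and MCAO Ezh2 ECKO replicate 2 had 2083 CPM, where the other libraries had 152 to 716 CPM. For part of the results that rest on these libraries, fold changes without them are also given. The counts of genes without overlap and the correlations across libraries include both.

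To check the labels, the deleted genes were read in the occluded groups. Hdac2 was at 57.6, 85 and 87.9 CPM in the libraries labelled MCAO Hdac2 ECKO and at 84.4, 68.2 and 96.1 CPM in MCAO ipsilateral, a log2 fold change of -0.11 ± 0.32 (SE; edgeR quasi-likelihood test, adjusted p = 0.925). Ezh2 was at 12, 19.7 and 8.41 CPM in the libraries labelled MCAO Ezh2 ECKO and at 4.45, 7.02 and 7.85 CPM in MCAO ipsilateral, a log2 fold change of 1.05 ± 0.86 (edgeR, adjusted p = 0.485). Hdac2 overlapped between the groups, Ezh2 was higher under its own label without overlap, and neither difference passed the test. The highest Ezh2 value, 19.7 CPM, came from replicate 2, the library with 2083 CPM of receptor genes. The other Ezh2 ECKO values, 12 and 8.41 CPM, also lay above every MCAO ipsilateral value. The table counts whole genes, so reads from exons outside the floxed part are included and the check does not resolve the deletion. The ECKO groups are accordingly named by their labels.

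Several of the 9 genes are neighbours. Foxq1, Foxf2 and Foxc1 lie in 1 cluster on chromosome 13 (mm10; Foxq1 from 31556134 to 31560976, Foxf2 from 31625816 to 31631403, Foxc1 from 31806633 to 31812476, all on the plus strand), with 64.8 kb and 175.2 kb between them and 0 other coding genes in the gaps. Fli1 (chromosome 9, 32422204 to 32542861, minus strand) and Ets1 (chromosome 9, 32636221 to 32757820, plus strand) are 93.4 kb apart, again with 0 coding genes between. Erg lies on chromosome 16 from 95359169 to 95586593 (minus strand), Sox7 on chromosome 14 from 63943673 to 63950732 (plus strand), Sox18 on chromosome 2 from 181669836 to 181671640 (minus strand) and Tal1 on chromosome 4 from 115056426 to 115071755 (plus strand). Each count covers the merged exons of the gene, from 1620 bases for Sox18 to 8476 bases for Ets1. Foxq1 overlaps the coding gene A530084C06Rik on the opposite strand, and the strand setting of the counting is not given in the sources used here, so reads of this pair cannot be told apart.

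Windows of 250 bases at the gene start are shown for Erg, Tal1, Foxf2 and Foxc1, the 4 members with an entry in the RefSeq promoter table (GRCm38.p6), because ETS factors are 3 of the 9 genes and their shared recognition core can be read in these windows. Each is printed 5′ to 3′ on the strand of its gene, with the ETS core (GGAA, or TTCC for the opposite strand) in capitals. Erg is chr16:95586594-95586843 (minus strand), Tal1 chr4:115056176-115056425, Foxf2 chr13:31625566-31625815 and Foxc1 chr13:31806396-31806645 (plus strand). The windows of Erg, Tal1 and Foxf2 end at the base before the deposited gene start, and the last bases of the Foxc1 window lie inside the deposited gene. The table also holds 2 further entries for Erg and 1 for Tal1, at starts inside the genes, which are not printed.
Erg: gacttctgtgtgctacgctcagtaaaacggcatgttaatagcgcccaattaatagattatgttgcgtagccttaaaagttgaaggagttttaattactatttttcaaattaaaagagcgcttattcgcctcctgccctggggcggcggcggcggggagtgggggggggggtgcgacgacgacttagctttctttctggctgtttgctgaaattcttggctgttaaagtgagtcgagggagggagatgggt
Tal1: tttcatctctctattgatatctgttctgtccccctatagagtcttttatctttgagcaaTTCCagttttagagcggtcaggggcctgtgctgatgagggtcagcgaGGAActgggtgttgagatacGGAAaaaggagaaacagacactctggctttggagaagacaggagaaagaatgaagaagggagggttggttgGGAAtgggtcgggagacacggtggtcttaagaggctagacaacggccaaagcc
Foxf2: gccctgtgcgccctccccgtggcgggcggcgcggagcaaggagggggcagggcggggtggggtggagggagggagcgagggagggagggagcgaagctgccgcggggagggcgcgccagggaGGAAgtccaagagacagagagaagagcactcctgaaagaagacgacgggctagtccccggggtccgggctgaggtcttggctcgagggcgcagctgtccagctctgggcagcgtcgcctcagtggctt
Foxc1: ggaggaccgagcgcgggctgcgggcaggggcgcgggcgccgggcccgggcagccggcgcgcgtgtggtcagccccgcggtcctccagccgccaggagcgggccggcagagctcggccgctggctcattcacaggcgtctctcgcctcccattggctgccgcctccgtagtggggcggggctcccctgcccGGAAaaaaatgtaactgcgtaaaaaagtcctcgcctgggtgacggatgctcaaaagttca

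The ETS core occurred 4 times in the window of Tal1, once in that of Foxf2, once in that of Foxc1 and 0 times in that of Erg shown here, where 93.4% of the 32851 promoter entries of the table hold it and the median is 3 matches. The longer ETS site CCGGAAG, which contains the core and is in 6.91% of all entries, was in 0 of the 4 windows shown, as were the SOX letters ACAAT (27.7% of entries) and the forkhead letters GTAAACA (3.17%). The GATA letters AGATAA (9.99% of entries) occurred once in the window of Tal1, and the E-box CANNTG (66.2%) once in that of Foxf2. The unprinted entries differed from these: those of Erg held 4 and 2 ETS cores, and the one with 2 also held 1 SOX, 1 GATA and 2 E-box matches, while that of Tal1 held 3 ETS cores. Both strands were searched, and a match is a description of letters, not of binding. The windows of Foxf2 and Foxc1 were rich in CpG, with 21 and 29 CG dinucleotides, against 14 for Erg and 6 for Tal1 and a median of 6 over all entries.

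Levels between genes were compared as CPM per kilobase of counted exon. Sox18 had the highest mean over the 18 libraries, 128 ± 68.9 CPM per kb (SD), followed by Fli1 at 76.3 ± 27.8, Foxf2 at 49.3 ± 15.6, Ets1 at 37.8 ± 16.2, Foxc1 at 36.5 ± 11.5, Erg at 33.4 ± 12.9, Foxq1 at 33 ± 9.16, Sox7 at 22 ± 6.78 and Tal1 at 6.36 ± 1.96 CPM per kb. Fli1 was above Foxf2, and Sox7 above Tal1, in 18 of 18 libraries. Sox18 was above Fli1 in 14 libraries, Foxf2 above Ets1 in 15, and Foxq1 above Sox7 in 15. Ets1, Foxc1, Erg and Foxq1 did not separate: the higher of each neighbouring pair was on top in 9, 12 and 8 of 18 libraries. Tal1, the blood and endothelial factor, thus had the lowest length-scaled level in every library, between 3.64 and 9.57 CPM per kb.

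**Figure D1:**
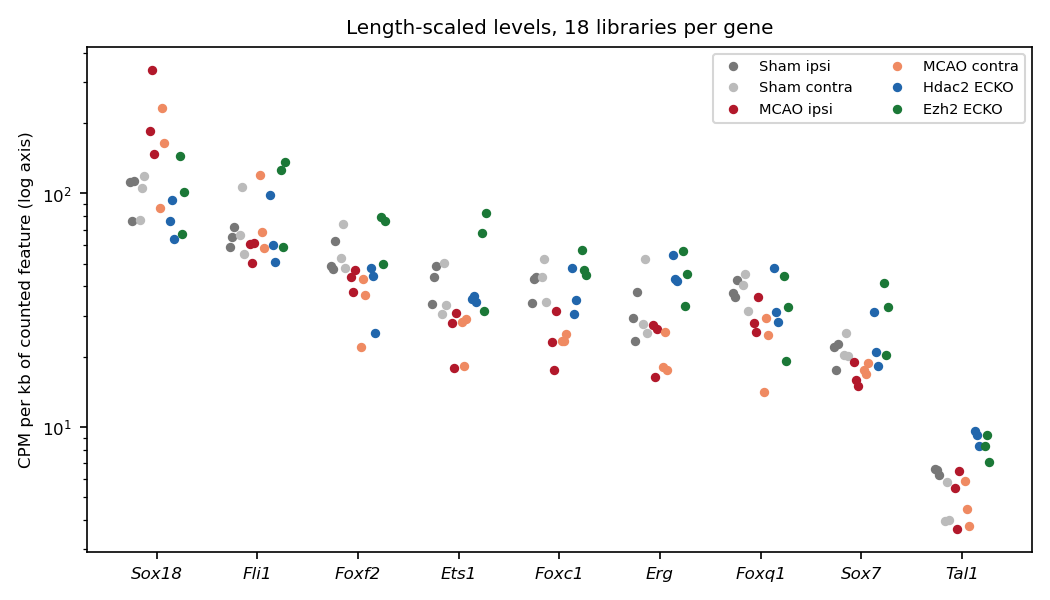
CPM per kb of counted feature (log axis) for each of the 9 genes, ordered by mean; every point is 1 library, coloured by group. Sox18 (64 to 338 CPM per kb) is highest on average and Tal1 (3.64 to 9.57) lies below all others.

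Occlusion against sham on the injured side was the first comparison. Sox18 stood higher and Foxc1 and Ets1 lower in the occluded cortex, with no overlap between the 3 libraries of each group, but none of the 9 genes passed the test. Sox18, the SoxF factor linked to lymphatic and venous fate, was at 181, 123 and 182 CPM in Sham ipsilateral and at 300, 548 and 238 CPM in MCAO ipsilateral. All MCAO libraries were above all Sham libraries, and replicate 2 was far above the other MCAO libraries. The log2 fold change was 1.16 ± 0.39 (2.23-fold; edgeR, adjusted p = 0.562).

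Foxc1, a forkhead factor of vessel and meningeal development, was at 197, 252 and 257 CPM in Sham ipsilateral and at 135, 102 and 184 CPM in MCAO ipsilateral. Every MCAO library was below every Sham library, and the log2 fold change was -0.74 ± 0.29 (edgeR, adjusted p = 0.645). Ets1, an ETS factor of activated and angiogenic endothelium, was at 284, 371 and 416 CPM in Sham and at 237, 152 and 261 CPM in MCAO. Its groups did not overlap either, and the log2 fold change was -0.72 ± 0.35 (edgeR, adjusted p = 0.702).

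Both barrier-associated forkhead genes were lower by less. Foxq1 was at 181, 175 and 206 CPM in Sham ipsilateral and 135, 123 and 174 CPM in MCAO ipsilateral (log2 fold change -0.38 ± 0.34; edgeR, adjusted p = 0.811). Foxf2 was at 116, 112 and 148 CPM in Sham and 104, 89.3 and 111 CPM in MCAO (log2 fold change -0.31 ± 0.33; edgeR, adjusted p = 0.834). In both genes the highest MCAO library lay just below the lowest Sham library.

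The other 4 genes overlapped between the groups. Erg, the ETS factor that maintains the quiescent endothelial programme, was at 101, 80.9 and 131 CPM in Sham ipsilateral and 94.6, 56.3 and 90.8 CPM in MCAO ipsilateral (log2 fold change -0.37 ± 0.34). Fli1, its close ETS relative, was at 206, 226 and 249 CPM in Sham and 212, 176 and 213 CPM in MCAO (-0.18 ± 0.37). Sox7 was at 72.4, 57.6 and 74.9 CPM in Sham and 62.4, 52.5 and 49.3 CPM in MCAO (-0.32 ± 0.32). Tal1 was at 29, 28.6 and 27.2 CPM in Sham and 23.9, 15.9 and 28.3 CPM in MCAO (-0.32 ± 0.36). The smallest adjusted p of these 4 in edgeR was 0.814.

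In this comparison 0 of 9 members and 0% of all 17094 genes were called at an adjusted p under 0.05 in edgeR. At an unadjusted p under 0.05, 3 members passed, against 7.08% of all genes; without MCAO ipsilateral replicate 2 the count was 0, and without Sham ipsilateral replicate 3 or MCAO ipsilateral replicate 1 it was 1. DESeq2 called 0 members and 69 of all genes. Limma-voom with sample weights called 3 members, Sox18 upward and Ets1 and Foxc1 downward, and 1273 of all genes. Log2 fold changes were below 0 for 8 members and above 0 for 1, where 45.9% of all genes were above 0. The members had a median log2 fold change of -0.32, and all genes one of -0.09. Without overlap, 1 member was higher and 4 were lower, against 13.3% and 14.4% of all genes. Several summed marker lists separated the same groups. From Sham ipsilateral to MCAO ipsilateral the sum of 10 brain endothelial markers went from 21576 to 27796 CPM up to 27969 to 41260 CPM. That of 8 microglial markers went from 34.2 to 43.7 CPM up to 83.5 to 87.9 CPM. Gene by gene, 5 brain endothelial markers had a log2 fold change above 0 and 5 below, and 7 microglial markers were above 0 and 0 below. The 6 neuronal markers summed to 57.3 to 111 and 127 to 183 CPM, and the 7 megakaryocyte markers to 19.8 to 24.9 and 34.8 to 39.5 CPM. The 6 fibroblast markers summed to 5.75 to 7.03 and 7.5 to 15.8 CPM. The sum of the 10 mural markers was lower, at 106 to 165 and 40.2 to 104 CPM. Most single neuronal and megakaryocyte markers went against their sums. Of the neuronal markers 2 were above 0 and 4 below, and of the megakaryocyte markers 3 and 4 (median log2 fold changes -0.83 and -0.63). Stmn2 made up most of the neuronal sum, at 46.4 to 268 CPM over all libraries, where no other neuronal marker exceeded 7.6 CPM. Fibroblast markers were 5 above and 1 below 0, and mural markers 1 and 9. Of these markers 0 were at 0 in all libraries of either group, and their part in the result was not tested.

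The libraries also differed by base composition. Sox18 has a GC content of 60.9%, reached or passed by only 2.2% of the tested genes, and the tested median is 48.4%. Foxf2 is close to it at 59.8%, followed by Foxq1 at 56.6% and Foxc1 at 55.9%. The other members lie between 44.5% (Fli1) and 52.8% (Tal1). The correlation across genes between GC content and a library's deviation from the mean library (Spearman's rho) was 0.31 to 0.41 in MCAO ipsilateral, -0.40 to 0.43 in Sham ipsilateral, -0.23 to 0.10 in MCAO Hdac2 ECKO and -0.33 to -0.21 in MCAO Ezh2 ECKO. The Sham ipsilateral libraries were far apart, at 0.43, -0.40 and 0.09, and their range spanned that of MCAO ipsilateral. The MCAO ipsilateral range lay above those of both ECKO groups. Sham contralateral was at 0.24, -0.21 and 0.14, and MCAO contralateral at -0.25, 0.36 and 0.29. The part of base composition in the Sox18 values was not tested.

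**Figure D2:**
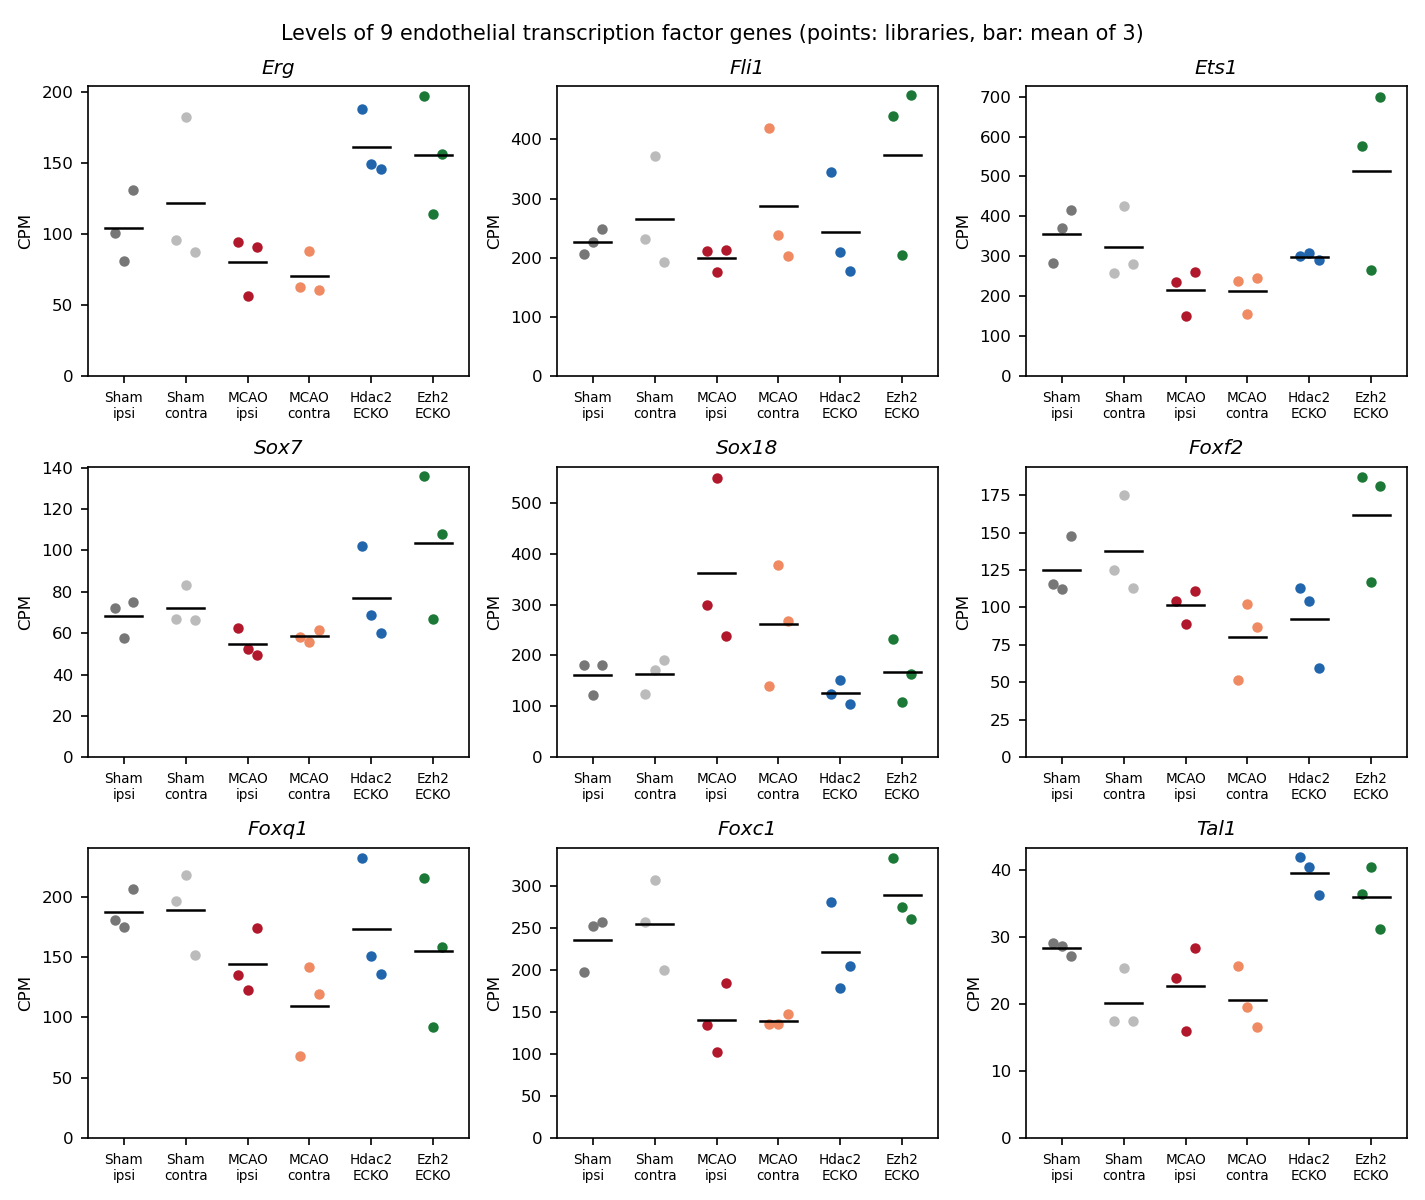
CPM of the 9 genes by group on axes that start at 0; each point is 1 library and the bar is the mean of 3. Sox18 is highest in MCAO ipsilateral (238 to 548 CPM), while Foxc1 is lowest in both MCAO groups (102 to 184 CPM).

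The contralateral cortex, away from the occlusion, also had lower forkhead genes after occlusion, with log2 fold changes that were close to the injured side for Foxc1 and further from 0 for Foxf2 and Foxq1. Foxc1 was at 257, 306 and 200 CPM in Sham contralateral and at 136, 136 and 147 CPM in MCAO contralateral, a log2 fold change of -0.87 ± 0.29. Foxf2 was at 125, 175 and 113 CPM in Sham and 51.9, 102 and 87.2 CPM in MCAO (-0.78 ± 0.33), and Foxq1 at 196, 218 and 152 CPM in Sham and 68.1, 142 and 119 CPM in MCAO (-0.78 ± 0.35). All 3 forkhead genes of the chromosome 13 cluster were thus lower in every MCAO library than in any Sham library of that side. None passed the test (edgeR, adjusted p = 0.92 for each). Without MCAO contralateral replicate 1, which had the lowest Foxf2 and Foxq1 of the series, the log2 fold changes were -0.82 for Foxc1, -0.52 for Foxf2 and -0.50 for Foxq1.

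Of the ETS genes, Erg was at 95.7, 182 and 87.6 CPM in Sham contralateral and 62.7, 88 and 60.7 CPM in MCAO contralateral (log2 fold change -0.79 ± 0.34), with 1 MCAO library just above the lowest Sham library. Ets1 was at 259, 426 and 282 CPM in Sham and 239, 155 and 247 CPM in MCAO, without overlap (-0.60 ± 0.35). Fli1 did not follow them, at 231, 372 and 193 CPM in Sham and 419, 239 and 203 CPM in MCAO (0.12 ± 0.37). Its highest MCAO value came from replicate 1, the library with 1889 CPM of receptor genes, and without that library the log2 fold change of Fli1 was -0.24.

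The SoxF genes again differed in sign. Sox7 was at 66.9, 83.3 and 66.6 CPM in Sham contralateral and 58.2, 55.7 and 61.7 CPM in MCAO contralateral, without overlap (log2 fold change -0.30 ± 0.32). Sox18 was at 124, 172 and 192 CPM in Sham and 140, 377 and 267 CPM in MCAO (0.68 ± 0.39), and without replicate 1 its log2 fold change was 1.01 ± 0.37 (edgeR, adjusted p = 0.586). Tal1 was at 17.4, 25.4 and 17.5 CPM in Sham and 25.7, 19.5 and 16.5 CPM in MCAO (0.03 ± 0.36; -0.13 without replicate 1). Tal1 therefore showed no separation on this side.

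On the contralateral side 0 of 9 members and 0% of all genes were called in edgeR, and DESeq2 and limma-voom called 0 members. At an unadjusted p under 0.05, 4 members passed, all lower, against 4.41% of all genes; the count was 1 without Sham contralateral replicate 2 and 2 without MCAO contralateral replicate 1. Without overlap, 5 members were lower, against 6% of all genes, and 0 were higher, against 3.65%. Fold changes were above 0 for 3 members, where 59.3% of all genes were above 0. The median log2 fold change of the members was -0.60 and that of all genes 0.17. The scaling moved the latter by 0.13 with DESeq2's size factors (RLE). The all-gene median was below 0 elsewhere: -0.08 without MCAO contralateral replicate 1, -0.12 with limma-voom and -0.14 with the receptor-gene level as a covariate. Its sign thus depended on that library and on the setting. Without that library Erg was at -0.68, Ets1 at -0.66 and Sox7 at -0.28. Mural markers were at 103 to 201 CPM in Sham contralateral and 17.6 to 68.1 CPM in MCAO contralateral, with 0 of 10 at 0 in all libraries. Astrocyte markers were at 57.8 to 91.2 CPM and 33.4 to 54.3 CPM, with Aldh1l1 at 0 in all Sham contralateral libraries. Gja1 was the highest astrocyte marker in every library, at 26 to 69.3 CPM, where no other exceeded 12.9 CPM. Gene by gene, 0 mural markers were above 0 and 10 below, and astrocyte markers were 2 above and 4 below. For both lists, their part in the result was not tested. Lower transcript levels from fewer cells of a kind and from less RNA per cell cannot be told apart in these bulk libraries.

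Both sides were then combined, a comparison added after the values were seen, in which the sides may share mice. Foxc1 averaged 140 CPM in the 6 MCAO libraries and 245 CPM in the 6 Sham libraries, without overlap, a log2 fold change of -0.81 ± 0.21 (edgeR, adjusted p = 0.135). Sox18 averaged 312 CPM in MCAO and 163 CPM in Sham, a log2 fold change of 0.92 ± 0.27 (edgeR, adjusted p = 0.205), with overlap through MCAO contralateral replicate 1. Ets1 averaged 215 CPM in MCAO and 340 CPM in Sham, a log2 fold change of -0.66 ± 0.25 (edgeR, adjusted p = 0.359). Each of these 3 genes had the same sign on both sides.

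In this joint comparison 0 of 9 members were called in edgeR, against 0.152% of all genes (26 genes), and 6 members had an unadjusted p under 0.05, against 9.09% of all genes. The latter count was 3 without Sham ipsilateral replicate 3, Sham contralateral replicate 2 or MCAO ipsilateral replicate 2, and 4 without MCAO contralateral replicate 1. Foxc1 and Foxf2 were lower without overlap, 2 of 9 members against 1% of all genes, and 0 members were higher, against 0.421%. DESeq2 called Foxc1 and Sox18 among 337 genes, limma-voom called Ets1, Foxc1, Foxq1 and Sox18 among 2199, and edgeR with the receptor-gene level as a covariate called Foxc1 among 99. Leaving out MCAO contralateral replicate 1 gave 1 member call among 266 genes, Sox18 at a log2 fold change of 1.09 ± 0.25 (edgeR, adjusted p = 0.0329). Over the other left-out libraries 0 members and 0 to 76 genes were called.

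The sides were also compared within each treatment. MCAO ipsilateral against MCAO contralateral gave log2 fold changes from -0.52 ± 0.37 (Fli1) to 0.47 ± 0.38 (Sox18), with 0 members higher or lower without overlap, against 3.49% and 1.88% of all genes. Without MCAO contralateral replicate 1 these ends were -0.17 and 0.15. Sham ipsilateral against Sham contralateral gave -0.22 ± 0.34 (Erg) to 0.49 ± 0.36 (Tal1), and Tal1 alone was without overlap, at 27.2 to 29 CPM against 17.4 to 25.4 CPM, where 8.44% of all genes were higher and 6.98% lower without overlap. Both comparisons called 0 members and 0% of all genes in edgeR, DESeq2 and limma-voom called 0 members, and 0 members had an unadjusted p under 0.05, against 3.08% of all genes between the MCAO sides and 1.85% between the Sham sides. The test of whether the occlusion difference itself differed between sides gave -0.35 ± 0.51 (Tal1) to 0.47 ± 0.54 (Sox18) on the log2 scale, with a smallest adjusted p of 0.941 in edgeR, 0% of all genes called and 0 members under 0.05 unadjusted (3.38% of all genes). Without MCAO contralateral replicate 1 these values were -0.17 and 0.17. DESeq2 and limma-voom called 0 members there as well, so no difference between the sides was detectable with 3 libraries a group.

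**Figure D3:**
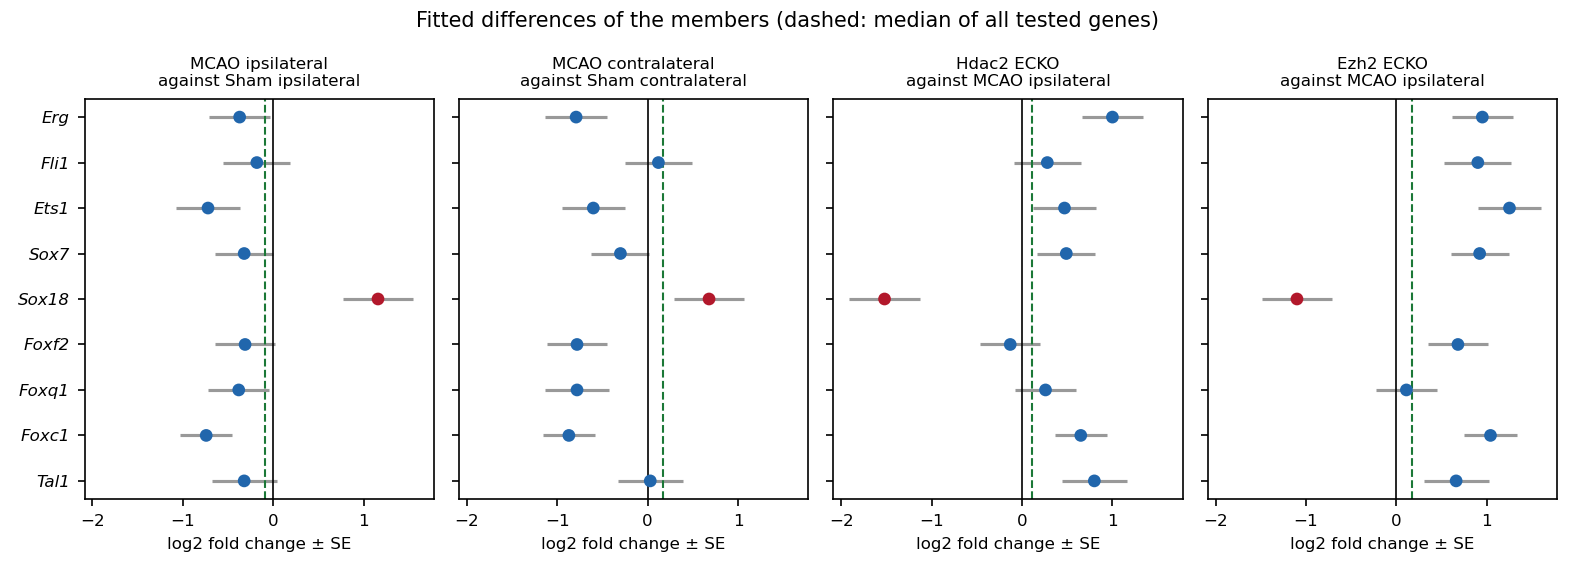
Log2 fold change ± SE (edgeR) of each gene in 4 comparisons; Sox18 is in red, the other genes in blue, the solid line is 0 and the dashed line the median of all 17094 genes. Sox18 is above 0 in both MCAO against Sham panels (1.16 and 0.68) and below 0 in both ECKO against MCAO panels (-1.52 and -1.10).

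The libraries labelled Hdac2 ECKO were compared with MCAO ipsilateral, the comparison the design sets for the deacetylase, although the counts above do not resolve its deletion. Sox18 was 2.86-fold lower and Erg 2.00-fold higher under the Hdac2 ECKO label, both without overlap, and neither passed the test. Sox18 was at 124, 152 and 104 CPM against 300, 548 and 238 CPM in MCAO ipsilateral. Every Hdac2 ECKO library lay below every MCAO library, and the log2 fold change was -1.52 ± 0.39 (edgeR, adjusted p = 0.273). DESeq2 gave -1.44 ± 0.38 with an adjusted p of 0.0212, so that call, 1 of 244 genes called by DESeq2, depended on the tool; over all alternatives the adjusted p ran from 0.0212 to 0.997.

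Erg was at 188, 149 and 146 CPM in the Hdac2 ECKO libraries against 94.6, 56.3 and 90.8 CPM in MCAO ipsilateral (log2 fold change 1.00 ± 0.34; edgeR, adjusted p = 0.406). Tal1 was at 41.9, 40.3 and 36.2 CPM against 23.9, 15.9 and 28.3 CPM (0.80 ± 0.36; edgeR, adjusted p = 0.489). Ets1 was at 300, 309 and 290 CPM against 237, 152 and 261 CPM (0.47 ± 0.35; edgeR, adjusted p = 0.69). These 3 genes were without overlap, and the Hdac2 ECKO libraries were close to each other for Ets1 and Tal1.

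The remaining genes overlapped with MCAO ipsilateral. Foxc1 was at 281, 178 and 204 CPM in Hdac2 ECKO against 135, 102 and 184 CPM (log2 fold change 0.65 ± 0.29; edgeR, adjusted p = 0.487). Sox7 was at 102, 69 and 60.1 CPM (0.49 ± 0.32) and Fli1 at 344, 209 and 177 CPM (0.28 ± 0.37). Foxq1 was at 232, 151 and 136 CPM (0.26 ± 0.34), and Foxf2 at 113, 104 and 59.5 CPM (-0.13 ± 0.33). In all 5 genes replicate 1 was the highest of the 3 Hdac2 ECKO libraries, and without it the log2 fold changes of Fli1 and Foxq1 were below 0, at -0.0902 and -0.0415.

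In this comparison 0 of 9 members and 0.0117% of all genes (2 genes) were called in edgeR, with 4 members at an unadjusted p under 0.05 against 9.85% of all genes. The latter count was 1 without MCAO ipsilateral replicate 2, and 2 without MCAO ipsilateral replicate 1 or Hdac2 ECKO replicate 1. Without overlap, 3 members were higher and 1 lower, against 9.54% and 10.3% of all genes. Fold changes were above 0 for 7 members, where 54.8% of all genes were above 0, and the median log2 fold change was 0.47, against 0.11 for all genes. DESeq2 called 1 member and limma-voom 0. The summed red cell markers were at 49334 to 297898 CPM in Hdac2 ECKO and 38268 to 65450 CPM in MCAO ipsilateral, and the microglial markers at 61 to 80.8 CPM and 83.5 to 87.9 CPM, without overlap; the part of either list in the result was not tested. TAL1 is also an erythroid factor, and the share of the Tal1 counts that came from such cells was not tested either.

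The libraries labelled Ezh2 ECKO were compared with MCAO ipsilateral in the same way. Of the 9 members, 8 had a log2 fold change above 0 (55.4% of all genes), up to 1.25 for Ets1, and Sox18 had one below 0, with adjusted p-values that came close to the threshold for Ets1 and Foxc1 but did not pass it. Ets1 was at 576, 266 and 699 CPM against 237, 152 and 261 CPM in MCAO ipsilateral. The lowest Ezh2 ECKO library, replicate 2, lay just above the highest MCAO library, and the log2 fold change was 1.25 ± 0.35 (2.37-fold; edgeR, adjusted p = 0.0651). Over the alternatives this adjusted p ran from 0.00814 to 0.346, and RLE scaling, DESeq2 and limma-voom each called Ets1.

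Foxc1 was at 333, 274 and 260 CPM in Ezh2 ECKO against 135, 102 and 184 CPM in MCAO ipsilateral. The groups were well apart, and the log2 fold change was 1.04 ± 0.29 (2.06-fold; edgeR, adjusted p = 0.0661, with a range of 0.0033 to 0.357 over the alternatives). Foxf2, its neighbour on chromosome 13, was at 187, 117 and 181 CPM against 104, 89.3 and 111 CPM (0.68 ± 0.33; edgeR, adjusted p = 0.266). Foxq1, the third gene of the cluster, was at 215, 92.4 and 158 CPM against 135, 123 and 174 CPM (0.11 ± 0.34; edgeR, adjusted p = 0.871). Foxc1 and Foxf2 were thus without overlap and Foxq1 overlapped, at 0.35 without Ezh2 ECKO replicate 2; the difference between these genes was not tested.

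Erg was at 197, 114 and 156 CPM in Ezh2 ECKO, above all MCAO ipsilateral libraries (log2 fold change 0.95 ± 0.34; edgeR, adjusted p = 0.141). Fli1 was at 440, 205 and 475 CPM against 212, 176 and 213 CPM (0.90 ± 0.37; edgeR, adjusted p = 0.189), where replicate 2 overlapped MCAO and replicate 3 was 2.70 times the lowest library of the series. Sox7 was at 136, 66.9 and 108 CPM against 62.4, 52.5 and 49.3 CPM, without overlap (0.92 ± 0.32; edgeR, adjusted p = 0.127). Tal1 was at 36.4, 40.4 and 31.1 CPM against 23.9, 15.9 and 28.3 CPM, also without overlap (0.66 ± 0.36; edgeR, adjusted p = 0.312).

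Sox18 was the exception here as well. It was at 233, 109 and 163 CPM in Ezh2 ECKO against 300, 548 and 238 CPM in MCAO ipsilateral, a log2 fold change of -1.10 ± 0.39 (edgeR, adjusted p = 0.132). The highest Ezh2 ECKO library was just under the lowest MCAO library.

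In this comparison 0 of 9 members and 1.46% of all genes (250 genes) were called in edgeR, and 6 members had an unadjusted p under 0.05, against 19.2% of all genes. Leaving out 1 library changed the 250 genes to 5 (MCAO ipsilateral replicate 1 or 2), 8 (Ezh2 ECKO replicate 3) or 24 (Ezh2 ECKO replicate 2), the covariate changed them to 13, the replicate block to 12, and the fit of only the groups compared to 485. The 6 members became 3 without MCAO ipsilateral replicate 2 or Ezh2 ECKO replicate 1. Without overlap, 6 members were higher and 1 was lower, against 13.6% and 15.3% of all genes. The median log2 fold change of the members was 0.90 and that of all genes 0.17. RLE scaling moved the latter by 0.19, to 0.36. The all-gene median was 0.00 without Ezh2 ECKO replicate 2, -0.01 with the covariate and 0.04 with limma-voom. Relative to the median of all genes, Ets1 was at 1.07 with TMM and 1.04 with RLE, Foxc1 at 0.87 with both, Sox18 at -1.28 and -1.31, and Foxq1 at -0.06 and -0.10.

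RLE scaling called 2 members (Ets1 and Foxc1) among 368 genes, DESeq2 called 4 (Erg, Ets1, Sox7 and Foxc1) among 1642, and limma-voom called 1 (Ets1) among 377, all higher. Without replicate 2, the Ezh2 ECKO library with 2083 CPM of receptor genes, 0 members were called in edgeR. Ets1 then had a log2 fold change of 1.54 ± 0.32 (edgeR, adjusted p = 0.0527), Fli1 1.17, Foxc1 1.06 and Sox18 -0.89, so that the differences of Ets1 and Fli1 were larger without that library. Of the marker lists 4 had lower sums in Ezh2 ECKO than in MCAO ipsilateral without overlap. Red cell markers summed to 71 to 671 CPM against 38268 to 65450 CPM, microglial markers to 48.4 to 61.1 against 83.5 to 87.9 CPM, neuronal markers to 47.3 to 78.7 against 127 to 183 CPM, and megakaryocyte markers to 19.1 to 29.9 against 34.8 to 39.5 CPM. Gene by gene, 1 red cell marker was above 0 and 6 below, and the same held for microglial markers. Neuronal markers were 3 above and 3 below 0, and megakaryocyte markers 3 and 4. Of the 10 brain endothelial markers 6 were above 0 and 4 below. Among them 1 was called, lower (edgeR, adjusted p = 0.0291), against 1.46% of all genes. Without overlap, 4 of them were lower and 1 higher, against 15.3% and 13.6% of all genes. Mural marker sums overlapped, at 26.9 to 169 and 40.2 to 104 CPM. Of these markers 0 were at 0 in all libraries of either group, and the part of these lists in the result was not tested.

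Both ECKO labels were compared directly. The log2 fold changes of Hdac2 ECKO against Ezh2 ECKO ran from -0.81 ± 0.33 for Foxf2 (59.5 to 113 CPM against 117 to 187 CPM, without overlap; edgeR, adjusted p = 0.36) through -0.78 ± 0.35 for Ets1 to 0.16 ± 0.34 for Foxq1. Of the members, 0 were called in edgeR, against 0.123% of all genes, 2 had an unadjusted p under 0.05 (0 to 4 over left-out libraries), against 11.2% of all genes, and DESeq2 and limma-voom called 0. Without overlap, 1 member was lower, against 5.26% of all genes, and 0 were higher, against 6.87%. Sox18 overlapped between the labels. The sums of red cell markers (49334 to 297898 against 71 to 671 CPM) and neuronal markers (130 to 182 against 47.3 to 78.7 CPM) separated them. By gene, 7 red cell markers were above 0 and 0 below, and 3 neuronal markers lay on each side of 0. The part of these lists in the result was not tested. Without Ezh2 ECKO replicate 2 the values were -1.01 for Foxf2, -1.11 for Ets1 and -0.13 for Foxq1.

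Against Sham ipsilateral, a comparison added after the values were seen, the ends of the members' ranges were nearer to 0. Under the Hdac2 ECKO label the members ran from -0.45 ± 0.33 (Foxf2) to 0.63 ± 0.34 (Erg), with Sox18 at -0.36 ± 0.38. Under the Ezh2 ECKO label they ran from -0.27 ± 0.34 (Foxq1) to 0.72 ± 0.37 (Fli1), with Sox18 at 0.05 ± 0.38; without replicate 2 these 3 genes were at -0.0101, 1.01 and 0.29. The smallest adjusted p was 0.787 in edgeR, 0 members were called in either comparison by edgeR, DESeq2 or limma-voom, and 0 had an unadjusted p under 0.05. Of all genes, 0% (Hdac2 ECKO) and 0.041% (Ezh2 ECKO) were called, and 7.14% and 6.52% had an unadjusted p under 0.05. The median log2 fold change of the members was -0.09 under the Hdac2 ECKO label (all genes -0.01). Under the Ezh2 ECKO label it was 0.36 (all genes 0.13). Erg and Tal1 (Hdac2 ECKO) and Foxc1 and Tal1 (Ezh2 ECKO) lay above every Sham ipsilateral library, and the other members overlapped. MCAO ipsilateral and Sham ipsilateral each serve as the reference for more than 1 of these comparisons, so the values are not independent of each other.

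Other genes of the same programmes were taken from lists. Of 24 further endothelial transcription factors, 23 were tested and 0 were called in edgeR in any of the 11 comparisons. In MCAO ipsilateral against Sham ipsilateral 18 of the 23 were below 0 and 5 above, where 45.9% of all genes were above 0. The median log2 fold change was -0.59 (all genes -0.09). In Ezh2 ECKO against MCAO ipsilateral 16 of 23 were above 0 (55.4% of all genes), with a median of 0.54 (all genes 0.17). There 8 had an unadjusted p under 0.05, 7 higher and 1 lower, against 19.2% of all genes. Of 14 partners of TAL1, such as E-proteins, LIM-domain cofactors and ID inhibitors, 0 were called in any comparison. Their medians were -0.23 and 0.34 in the same pair of comparisons. In each of the 2, 4 partners had an unadjusted p under 0.05, 2 higher and 2 lower, against 7.08% and 19.2% of all genes.

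Of 24 genes that ETS, SOX and forkhead factors are known to drive in endothelium, 1 was called, in Ezh2 ECKO against MCAO ipsilateral. In that comparison 1.46% of all genes were called. Icam2, an endothelial adhesion molecule and ETS target, fell from 337, 466 and 186 CPM to 71.8, 43 and 45.6 CPM, a log2 fold change of -2.62 ± 0.62 (edgeR, adjusted p = 0.0426). Its lowest level of the series was 31.1 CPM, in MCAO contralateral replicate 1, the library with 1889 CPM of receptor genes. The other MCAO contralateral libraries were at 408 and 347 CPM, and the Sham libraries ran from 96.1 to 321 CPM. RLE scaling, DESeq2 and limma-voom also called it, but its adjusted p was 0.0706 with the replicate block, 0.242 with the covariate and 0.0577 to 0.212 without any 1 of the libraries other than MCAO ipsilateral replicate 3. The list's median in that comparison was -0.36 with 16 of 24 below 0, whereas 8 of 9 members and 55.4% of all genes were above 0. In Hdac2 ECKO against MCAO ipsilateral 15 of the 24 were below 0, with a median of -0.18, where 54.8% of all genes were above 0. The transcription factor genes and their listed targets thus lay on opposite sides of 0 by median, and the lists' differences were not tested.

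Across the 18 libraries the levels of the members other than Sox18 varied together. The 28 pairs without Sox18 had Pearson correlations of log2(CPM + 1) from 0.15 to 0.78 with a median of 0.60, where the median over all pairs of 7814 well-measured genes was 0.04. The 8 pairs with Sox18 had correlations from -0.65 (Foxc1) to 0.04 (Foxf2), and 7 were below 0. With the group means removed, Foxf2 and Foxq1 were the closest pair (0.86), Fli1 and Ets1 stood at 0.70 and Sox18 with Foxc1 at -0.32. Tal1 was then at 0.04 with Sox7 (from 0.47), 0.04 with Foxf2, -0.03 with Foxq1 and 0.24 with Ets1 (from 0.50). It stood at 0.49 with Erg, 0.42 with Fli1 and 0.57 with Foxc1. Of the 8 pairs with Sox18, 4 were then above 0: Sox7 went from -0.23 to 0.42, Erg from -0.44 to 0.22, Foxq1 from -0.05 to 0.48 and Foxf2 from 0.04 to 0.54. The opposition of Sox18 to these genes was thus not seen within the groups, while Tal1 (-0.54) and Foxc1 stayed below 0. The points share libraries, depth and base composition, and the values are descriptions.

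**Figure D4:**
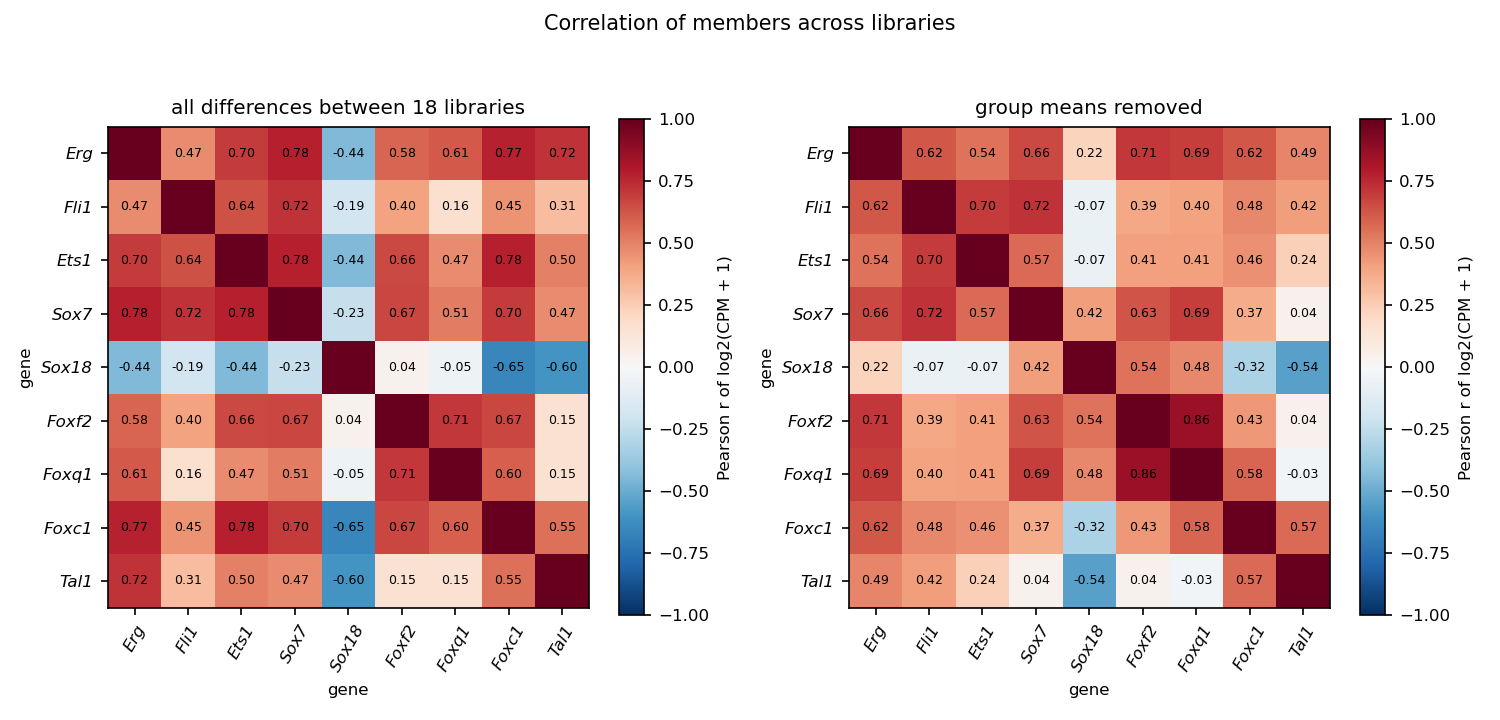
Pearson correlation of log2(CPM + 1) between the 9 genes over 18 libraries, as measured (left) and with group means removed (right); red is positive and blue negative. The Sox18 row is mostly blue on the left (-0.65 to 0.04), while all other pairs are positive there (0.15 to 0.78). On the right 4 of the 8 Sox18 pairs are positive.

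For each member, genes outside the set with the highest correlation over the 18 libraries, among the 7814 genes that averaged 10 CPM or more, were noted. Foxc1 was most like Kdr, the main VEGF receptor, and Ctnnb1, which encodes beta-catenin (both r = 0.94). Sox18 was most like Golt1b (0.91) and Slc2a1, the glucose transporter of the barrier (0.90). Erg was most like Adgrf5 (0.92) and Mrpl33 (0.89), Ets1 like Arhgap29 and Ulk4 (both 0.91), and Fli1 like Pabpc1 (0.89) and Heg1 (0.87). Foxf2 was most like Usp42 (0.92) and Sh3rf1 (0.90), Foxq1 like Ppm1h (0.87), Sox7 like Hsd17b11 and Rtn4 (both 0.85), and Tal1 like Exoc1 and Ddx5 (both 0.86). With group means removed, Foxc1 and Kdr stood at 0.80, Sox18 and Slc2a1 at 0.78, and Tal1 and Ddx5 at 0.51.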

How the data were processed

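Libraries from 18 samples in 6 groups of 3 were measured. The submitters' processing notes name FastQC, cutadapt, STAR, featureCounts, DESeq2 and mm10, with no versions or roles. The deposited table is called normalized, but the values the authors deposited are whole-number counts with unequal totals (25791401 to 57576255), and 77.3% to 89.4% of the counts from 1 to 20 are even in each library; other values deposited per gene are its coordinates and feature length. They were tested as counts with edgeR 4.0.16 in R 4.3.3: TMM factors, genes reaching 10 counts in 3 or more libraries, 1 quasi-likelihood fit of 6 group means, Benjamini-Hochberg adjustment over 17094 genes, called under 0.05. CPM use TMM-scaled totals. The SE is the log2 fold change over the root of F. Alternatives were RLE scaling, DESeq2 1.42.0, limma-voom (limma 3.58.1), no filter, only the groups compared, a replicate block, the receptor-gene level as covariate, and leaving out each library. The fit was tested on simulated data. Gene positions were matched to GENCODE M21, and promoters come from RefSeq. All members are named, the lists' called genes, and the 2 most like genes of each member, of which 1 is not reported here. Members and lists were chosen with earlier results of these data known.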

Additional observations from a re-analysis of the deposited data

How the results depend on the processing

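No member was called in edgeR with TMM, and this held in all 11 comparisons without the filter, with only the groups compared and with a replicate block. Calls appeared elsewhere: in MCAO ipsilateral against Sham ipsilateral 3 with limma-voom; in Hdac2 ECKO against MCAO ipsilateral 1 with DESeq2; in Ezh2 ECKO against MCAO ipsilateral 2 with RLE scaling, 4 with DESeq2 and 1 with limma-voom; in MCAO against Sham on both sides 2 with DESeq2, 4 with limma-voom, 1 with the background as a covariate, and 0 to 1 when 1 library was left out. The labels do not say whether same-numbered sides share a mouse: deviations of 4 of the 6 such pairs correlated at 0.277 to 0.365 (replicates 1 and 2) and those of replicate 3 at -0.124 and 0.036, so the numbers were not taken as a pairing; other same-numbered libraries gave -0.25 to 0.203. With the replicate block 12 genes instead of 250 were called in Ezh2 ECKO against MCAO ipsilateral, and 4 instead of 26 in both sides together; Ets1 stood at 1.23 and Sox18 at -1.04 in the former. All-gene calls in Ezh2 ECKO against MCAO ipsilateral were 1642 with DESeq2, and in Hdac2 ECKO against MCAO ipsilateral 244 instead of 2.

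Of 732 recomputed values of 54 printed fold changes, 709 kept their direction and 23 in 10 fold changes did not; the cause was not tested. In MCAO contralateral against Sham contralateral, Fli1 was at -0.0403 with limma-voom and -0.0244 without the filter (-0.24 to 0.44 over left-out libraries), and Tal1 at -0.10 without the filter and -0.0389 with the covariate (-0.13 to 0.24). Erg in Sham ipsilateral against Sham contralateral was at 0.13 with limma-voom (-0.45 to 0.18). In Hdac2 ECKO against MCAO ipsilateral, left-out libraries gave -0.0902 to 0.42 for Fli1, -0.34 to 0.0618 for Foxf2 and -0.0415 to 0.37 for Foxq1. In Ezh2 ECKO against MCAO ipsilateral they gave -0.20 to 0.35 for Foxq1. Foxq1 in Hdac2 ECKO against Ezh2 ECKO was at -0.0744 with the covariate (-0.16 to 0.46). The occlusion by side interaction of Sox18 was -0.18 with limma-voom and -0.0158 with the covariate. Sox18 in Ezh2 ECKO against Sham ipsilateral was at -0.0205 with limma-voom (-0.25 to 0.29). Fold changes that are not printed changed sign in 78 of 663 recomputed values. Without MCAO ipsilateral replicate 2, the highest Sox18 library, Sox18 was at 0.73 against Sham ipsilateral, and at -1.09 (Hdac2 ECKO) and -0.68 (Ezh2 ECKO) against MCAO ipsilateral. Of the 54 group levels, 12 moved by over 1 SD with unscaled totals, 12 with globin genes left out of the totals and 2 with RLE. The members had 680 to 24992 counts per library.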
